A study of Homo sapiens with 4 samples.

Results

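The 45 genes described here encode the machinery that makes ribosomes: RNA polymerase I and its initiation factors, the small nucleolar ribonucleoproteins (snoRNPs) that modify ribosomal RNA, and the assembly factors of both ribosomal subunits. They were taken by gene symbol from a table of read counts for 25369 genes, and all 45 were found there. Polyadenylated RNA had been sequenced from the human lung squamous cell carcinoma line H226, an established line, which carried a doxycycline-inducible short hairpin RNA. In 2 cultures the hairpin was non-targeting (shControl) and in 2 it was directed against p63 (shp63), and all 4 cultures had been kept with 1 µg/mL doxycycline for 6 days. The shared exposure to doxycycline and the same line are therefore common to both groups, and the labels name 1 construct per group, so that effects of a hairpin and of its target cannot be told apart.

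Ribosome production starts in the nucleolus, where RNA polymerase I transcribes a long precursor of ribosomal RNA. Small nucleolar RNAs guide chemical modification of this precursor, a large particle called the small subunit processome folds and cuts its first part, and a separate set of factors builds the large subunit around the rest. Growing and dividing cells make many ribosomes, and the transcription factor MYC is a known activator of many of these genes. The ribosomal RNA itself is not polyadenylated and was not measured here.

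The libraries held between 51926832 and 53924761 counted reads, so that 1 CPM (the unit of normalised read counts used throughout, scaled by TMM factors) rested on 50.1 to 55.5 reads. The target of the hairpin, TP63, stood at 136 and 137 CPM in the shControl libraries and at 30.7 and 30.5 CPM in the shp63 libraries. Reads were found for all 10 listed markers of squamous epithelium, of which 9 fell and KRT6A rose. Their mean levels in shControl differed widely, from 3898 CPM for KRT17 to 4.35 CPM for KRT14 and 4.08 CPM for PKP1. SOX2 had only 11 to 14 reads in shControl and 1 to 3 in shp63. Markers of other cells were uneven. Of 7 fibroblast markers 4 were too low to be tested and DCN had no reads, while COL1A1 fell from 98.7 to 70.7 CPM and made up most of the sum of 97.2 to 102 CPM in shControl and 67.1 to 75.2 CPM in shp63. Of 7 mesothelial markers ITLN1 and PDPN had no reads and WT1 had 0 to 4, while MSLN and UPK3B rose, and the list summed to between 334 and 361 CPM in shControl and to between 630.0 and 636 CPM in shp63. Among 8 leukocyte markers PTPRC had 4 to 8 reads and CD3E 0 to 4. CD14 was higher in shp63 (SD over 2 libraries: 6.17 ± 0.435 against 43.9 ± 1.82 CPM), as were CD68 and LYZ, while ITGAM was lower (0.695 against 0.274 CPM). The 8 leukocyte markers summed to between 13.0 and 14.4 CPM in shControl and to between 74.6 and 78.6 CPM in shp63. The part of such transcripts in the results below was not tested.

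The genes of ribosome production were lower in shp63 almost without exception. Of the 45 genes 44 fell and 1, URB1, rose (edgeR quasi-likelihood test, adjusted p under 0.05 by Benjamini-Hochberg over 14901 tested genes). Over all tested genes 37.1% were lower and 36.9% higher by the same rule, and 74.0% were called in either direction. PPAN had the lowest mean level of the 45 genes, 3.44 CPM. Among the 11529 tested genes at or above this level 41.1% were lower, 38.6% higher and 79.7% called in either direction. PPAN alone set this limit, so these shares are not those of genes matched in level to the 45 genes. The median log2 fold change was -0.60 over the 45 genes and -0.01 over all tested genes. All 45 genes had libraries that did not overlap between the groups, which was also so for 86.4% of all tested genes. The smallest two-sided p that exact permutation of 2 samples against 2 allows is 0.333, and the calls therefore depend on the spread that the model shares across genes.

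The falls were of moderate size and alike in the 2 cultures of a group. Log2 fold changes among the 44 genes ran from -1.21 for LYAR to -0.20 for GNL3, and the middle 50% of the 45 genes lay between -0.79 and -0.45. Of the 45 genes 17 passed a test against a 1.5-fold change, all of them lower; of all tested genes 10.0% passed it as lower, and 9.68% of those at or above 3.44 CPM. Together the 45 genes summed to 5032 and 5053 CPM in shControl and to 3349 and 3439 CPM in shp63, a 1.49-fold lower total. NCL and NPM1 made up much of this sum. Without them the other 43 genes summed to 2904 and 2919 CPM in shControl and to 2077 and 2095 CPM in shp63, which is 1.40-fold lower. This sum includes the rise of URB1, and the 42 genes left without URB1 as well summed to 2651 and 2670 CPM in shControl and to 1715 and 1741 CPM in shp63, which is 1.54-fold lower. In bulk samples, fewer cells that make a transcript and less of it per cell cannot be told apart, and CPM values give shares of a library, not amounts per cell.

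**Figure D1:**
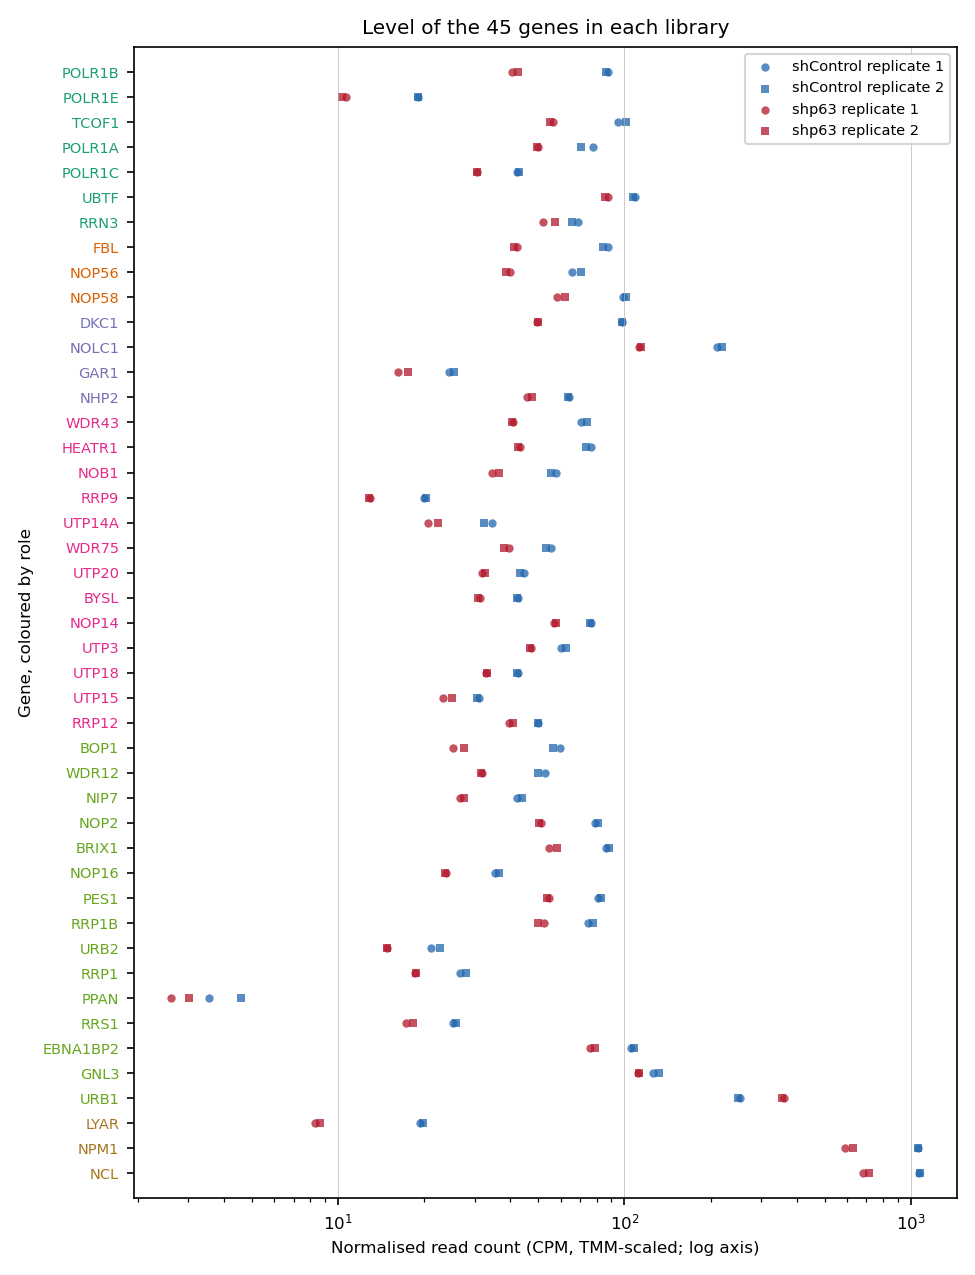
Normalised read count (CPM, log axis) of each of the 45 genes in the 4 libraries, with gene names coloured by role as in the plot of changes; blue is shControl, red is shp63, and circles and squares are replicates 1 and 2. The red points lie to the left of the blue ones for every gene except URB1, and in no gene do the colours interleave.

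Transcripts that accompany cell growth and division were lower in shp63 too. MYC stood at 113 and 115 CPM in shControl and at 27.1 and 27.5 CPM in shp63. All 12 listed genes of cell division fell (median -1.98 on the log2 scale), while 37.1% of all tested genes were called lower. The summed level of the 12 genes went from 3070 and 3052 CPM to 875 and 913 CPM. MKI67, a marker of cycling cells, went from 720 ± 18.7 CPM to 181 ± 6.15 CPM (mean ± SD of 2 libraries). The part of these differences in the change of the ribosome production genes was not tested.

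All 7 members of the polymerase I group fell. Their log2 fold changes had a median of -0.58. POLR1B, the second-largest subunit and part of the catalytic centre, had 87.3 and 86.6 CPM in shControl and 40.6 and 42.7 CPM in shp63. It fell 2.09-fold (log2 fold change -1.06, SE 0.043, edgeR adjusted p = 9.77e-16). POLR1A, the largest subunit, had 77.8 and 70.8 CPM in shControl and 49.8 and 49.6 CPM in shp63. The POLR1A libraries of shControl stood farther apart than those of shp63, yet both were above them, and the log2 fold change was -0.58 (SE 0.046). The gene of POLR1B lies on chromosome 2 from 113299492 to 113337395 and that of POLR1A on chromosome 2 from 86247339 to 86333278 (GRCh37).

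POLR1E, a subunit particular to polymerase I, fell 1.81-fold, and POLR1C, which polymerase III also uses, fell 1.39-fold. Exons of POLR1C overlap on the other strand those of YIPF3, which rose (7726 and 7722 reads in shControl, 14953 and 14225 in shp63), XPO5, which fell, and LRRC73, which rose, so the count of POLR1C is uncertain without a known strand setting. TCOF1 encodes treacle, a nucleolar scaffold that binds polymerase I, and had 95.1 and 101 CPM in shControl and 56.6 and 55.1 CPM in shp63. Its fall of 1.76-fold was among the 3 of this group that passed the 1.5-fold test, with POLR1B and POLR1E. The initiation factors moved least. UBTF, which shapes the ribosomal DNA promoter, had 109 and 107 CPM in shControl and 87.6 and 85.8 CPM in shp63 (log2 fold change -0.32, SE 0.036, edgeR adjusted p = 6.04e-08). RRN3, which brings the polymerase to the promoter, had 69.0 and 65.7 CPM in shControl and 52.0 and 57.1 CPM in shp63 (log2 fold change -0.31, SE 0.048, edgeR adjusted p = 5.83e-06). The lowest control library of each factor still lay above the highest shp63 library. RRN3 has pseudogene copies, so its count depends on how shared reads were assigned.

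Of the core proteins of box C/D snoRNPs, which methylate ribosomal RNA, 3 are among the 45 genes, and all 3 fell and passed the 1.5-fold test. FBL encodes fibrillarin, the methyltransferase. It had 87.9 and 84.1 CPM in shControl and 42.0 and 41.2 CPM in shp63, a 2.06-fold fall (log2 fold change -1.05, SE 0.043, edgeR adjusted p = 1.36e-15). Its partners NOP56 and NOP58 form the scaffold that holds the enzyme on the guide RNA. NOP56 had 65.6 and 70.4 CPM in shControl and 39.9 and 38.6 CPM in shp63. NOP58 had 98.6 and 101 CPM in shControl and 58.4 and 62.2 CPM in shp63. These are falls of 1.73-fold and 1.66-fold, with no library of one group inside the range of the other. The remaining core gene, NHP2L1, which is not among the 45, went from 139 ± 1.42 CPM to 130 ± 0.573 CPM (SD, n = 2 each), a 1.07-fold fall (edgeR adjusted p = 0.00994).

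The box H/ACA snoRNPs convert uridine in ribosomal RNA to pseudouridine. DKC1, which encodes the enzyme dyskerin, had 98.1 and 98.4 CPM in shControl and 49.6 and 49.8 CPM in shp63, so that replicates differed by less than 1 CPM and the groups by almost the whole of the shp63 level. The fall was 1.98-fold (log2 fold change -0.98, SE 0.040, edgeR adjusted p = 1.12e-15). The smaller core proteins fell less. NHP2 had 64.2 and 63.4 CPM in shControl and 45.6 and 47.7 CPM in shp63 (log2 fold change -0.45, SE 0.043), and GAR1 fell 1.48-fold. NOLC1, a phosphoprotein that accompanies snoRNPs, went from 215 ± 5.47 CPM to 114 ± 1.45 CPM, a 1.90-fold fall (SD, n = 2 each). The remaining core gene, NOP10, which is not among the 45, was at 53.3 ± 1.17 CPM in shControl and 52.6 ± 0.0843 CPM in shp63 (edgeR adjusted p = 0.72).

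**Figure D2:**
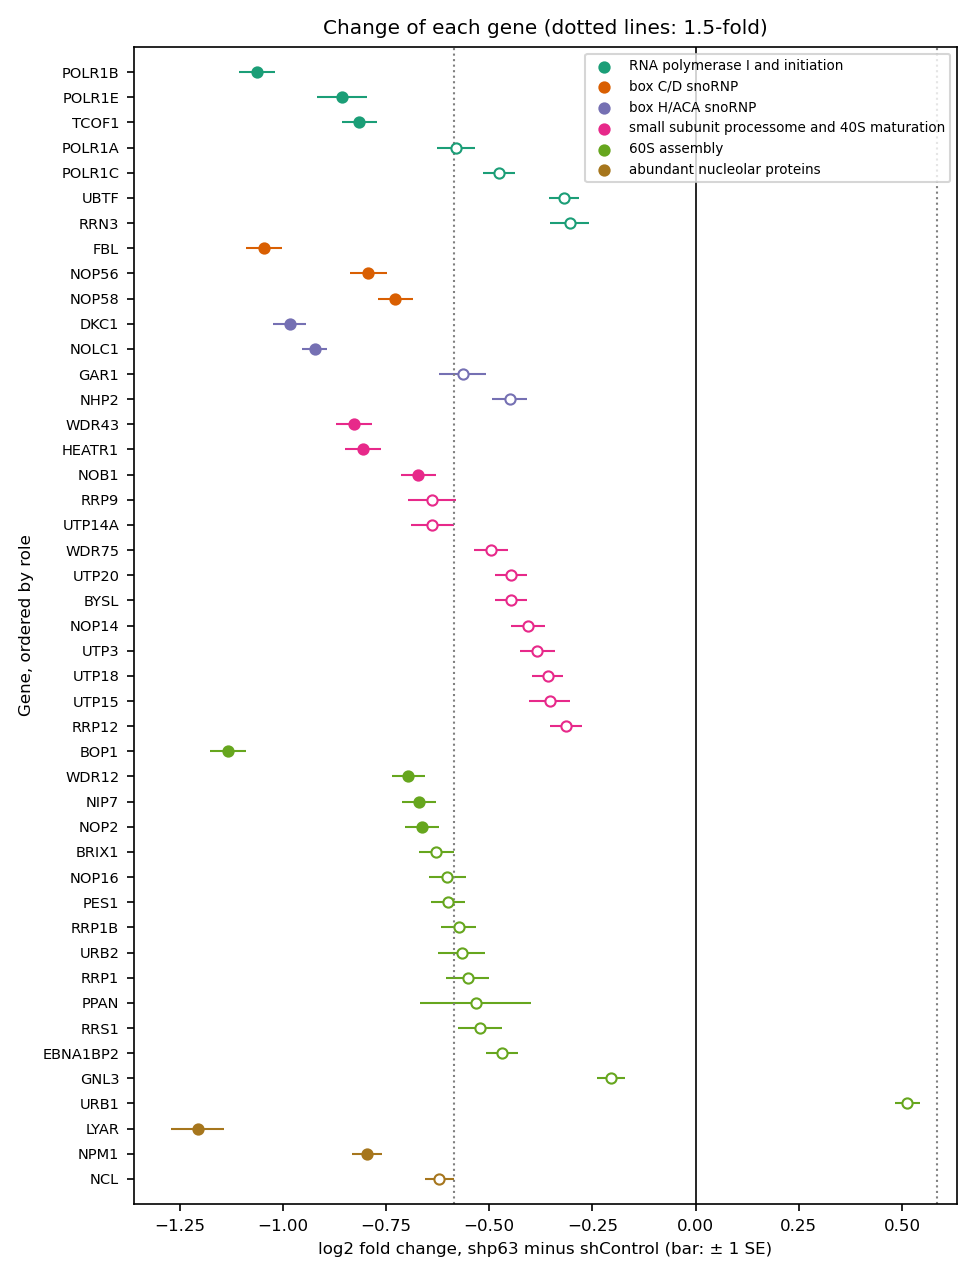
Log2 fold change of each gene (shp63 minus shControl, bars ± 1 SE from the edgeR fit), ordered by role and then by size; filled points passed the test for a change beyond 1.5-fold (dotted lines) and open points did not. The 17 filled points are all on the left, from LYAR at -1.21, and URB1 at 0.51 is the only point to the right of 0.

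All 13 genes of the small subunit processome and of later 40S maturation fell (median -0.45 on the log2 scale), and 3 of them (WDR43, HEATR1 and NOB1) passed the 1.5-fold test. WDR43, UTP15, WDR75 and HEATR1 encode proteins of the subcomplex that joins the growing ribosomal RNA first. WDR43 had 70.6 and 74.0 CPM in shControl and 40.9 and 40.6 CPM in shp63, a 1.77-fold fall (log2 fold change -0.83, SE 0.044, edgeR adjusted p = 1.45e-13). HEATR1 fell 1.75-fold, WDR75 1.41-fold and UTP15 1.28-fold, so these 4 genes fell by unequal amounts. CIRH1A and NOL11, of the same subcomplex but not among the 45, fell 1.58-fold and 1.43-fold.

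NOB1, the endonuclease that makes the mature end of the small subunit's RNA, went from 56.6 ± 1.53 CPM to 35.6 ± 1.36 CPM, a 1.59-fold fall (SD, n = 2 each). RRP9, a protein of the U3 snoRNP, and UTP14A, a cofactor of a processome helicase, fell 1.56-fold each. The other factors changed less. UTP20, BYSL, NOP14, UTP3 and UTP18 fell by 1.28-fold to 1.36-fold. The smallest fall of this group was in RRP12, a factor in nuclear export of the subunit. RRP12 had 49.8 and 50.0 CPM in shControl and 39.4 and 40.8 CPM in shp63 (log2 fold change -0.31, SE 0.039, edgeR adjusted p = 2.61e-07).

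Of the 15 genes of large subunit (60S) assembly 14 fell and 1 rose, with a median log2 fold change of -0.57. BOP1, PES1 and WDR12 encode the 3 proteins of the PeBoW complex, which is needed to process the large subunit's RNA. BOP1 had 59.4 and 56.4 CPM in shControl and 25.3 and 27.5 CPM in shp63, a 2.19-fold fall (log2 fold change -1.13, SE 0.044, edgeR adjusted p = 4.79e-16). WDR12 fell 1.62-fold and PES1 1.52-fold. BOP1 thus stood lowest against its control within the complex, and PES1 did not pass the 1.5-fold test.

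NOP2, a methyltransferase of the large subunit's RNA, fell 1.58-fold and NIP7, a factor of pre-ribosome processing, 1.59-fold, and both passed the 1.5-fold test. BRIX1, NOP16, RRP1, RRP1B, RRS1, EBNA1BP2 and URB2 fell by 1.38-fold to 1.55-fold without passing it. GNL3 encodes nucleostemin, a nucleolar GTPase, and had the smallest fall of all. It had 126 and 133 CPM in shControl and 112 and 113 CPM in shp63, groups that were close but did not overlap (log2 fold change -0.20, SE 0.035, edgeR adjusted p = 1.74e-05). GLT8D1, whose exons overlap those of GNL3 on the other strand, rose (2343 and 2346 reads in shControl, 3423 and 3196 in shp63). The count of GNL3 is therefore uncertain too. Exons of NOP16 and NIP7 overlap those of HIGD2A and COG8 on the other strand, which also rose. PPAN rested on the fewest reads, 197 and 247 in shControl and 136 and 151 in shp63 (log2 fold change -0.53, SE 0.135, edgeR adjusted p = 0.00126). Without the second shControl library the PPAN value was -0.35 (edgeR adjusted p = 0.0391). Its exons overlap those of PPAN-P2RY11 and P2RY11, which have rows of their own in the table, so its count is uncertain.

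URB1 was the only gene of the 45 that rose. It had 253 and 249 CPM in shControl and 362 and 355 CPM in shp63, a 1.43-fold rise (log2 fold change 0.51, SE 0.030, edgeR adjusted p = 6.81e-13). The replicates lay within 8 CPM of each other and the groups more than 100 CPM apart, but the rise did not pass the 1.5-fold test. URB1 encodes a large nucleolar protein of 60S assembly and lies on chromosome 21 from 33683329 to 33765321 on the minus strand (GRCh37). The annotation places exons of MRAP against those of URB1 on the other strand, and MRAP had 0 or 1 reads in each library. URB2, whose yeast counterpart binds that of URB1, went from 22.0 ± 1.12 CPM to 14.8 ± 0.0404 CPM, a 1.48-fold fall (SD, n = 2 each).

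Of the 3 nucleolar proteins outside these complexes, NCL and NPM1 were the most abundant of all members. NCL encodes nucleolin, an RNA-binding protein, and had 1070.4 and 1074 CPM in shControl and 682 and 713 CPM in shp63, a 1.54-fold fall (log2 fold change -0.62, SE 0.035). NPM1 encodes nucleophosmin, a chaperone that organises the nucleolus. It had 1058 and 1060.4 CPM in shControl and 589 and 631 CPM in shp63, a 1.74-fold fall (log2 fold change -0.80, SE 0.036, edgeR adjusted p = 1.05e-14). NPM1 has many pseudogene copies, so shared reads make its level uncertain. For both genes the shp63 cultures differed more from each other than the shControl cultures did, by far less than the groups. LYAR, a zinc finger protein of the nucleolus, had 19.3 and 19.8 CPM in shControl and 8.32 and 8.64 CPM in shp63. Its 2.31-fold fall was the largest of the 45 (log2 fold change -1.21, SE 0.064, edgeR adjusted p = 1.48e-13).

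Levels can be compared between genes only per transcript length, and here only roughly. The annotation used for counting is not named, so the length counted over may differ from the one used here. Per kilobase of the reference (MANE Select) transcript, NPM1 had 802 CPM in shControl and 462 in shp63, and NCL had 273 and 178. NHP2, EBNA1BP2 and FBL followed with 81.8, 79.2 and 76.4 CPM per kilobase in shControl. PPAN, whose count is uncertain because of overlapping genes, was lowest with 1.77, then URB2 with 3.92 and UTP20 with 4.86. URB1, with 23.2 CPM per kilobase in shControl and 33.1 in shp63, lay in the middle of the group, and FBL went from 76.4 to 37.0. BOP1 had no such transcript in the annotation used and has no value on this scale.

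**Figure D3:**
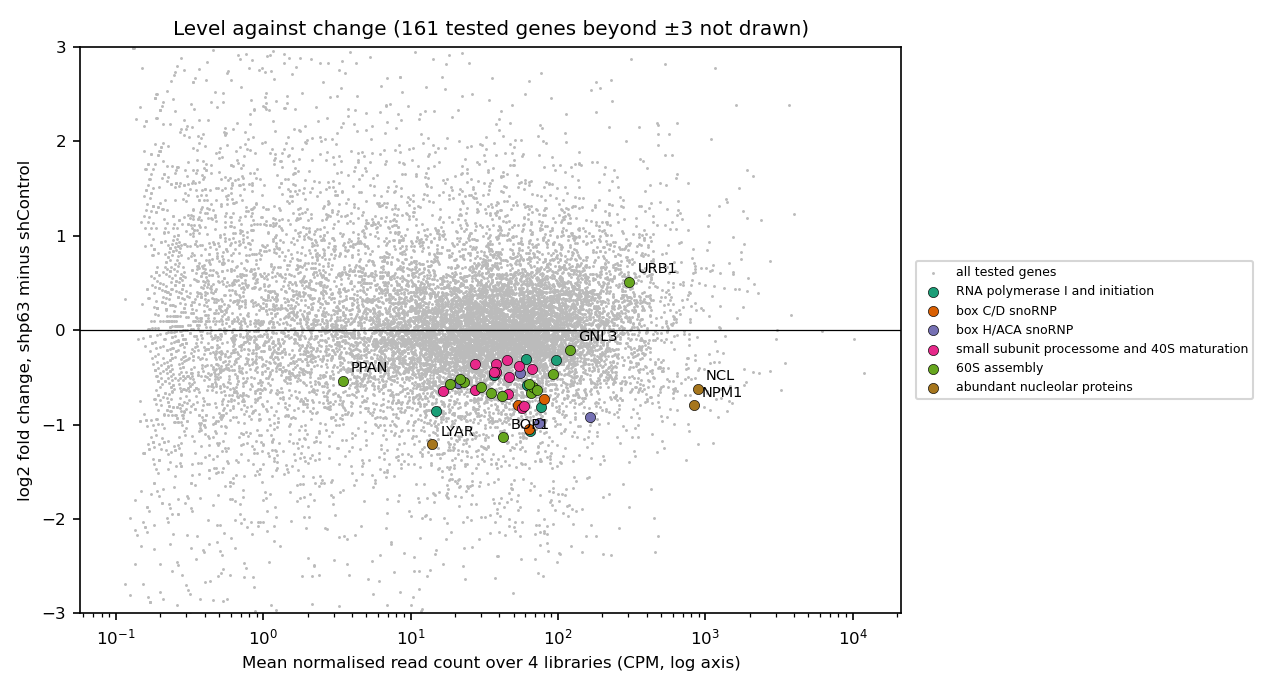
Log2 fold change (shp63 minus shControl) against mean level over the 4 libraries (CPM, log axis) for all tested genes in grey and for the 45 genes in colour by role. The coloured points form a band below 0 across levels from PPAN to NCL, inside the grey cloud, with URB1 above 0; 161 tested genes beyond 3 in either direction are not drawn.

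The promoters of these genes were searched for the letters CACGTG, the E-box that MYC with its partner MAX and several other factors bind. RefSeq sequences (GRCh38.p14) from 250 bases before to 50 bases after the annotated start were matched for 36 of the 45 genes by symbol. BOP1, NOLC1, NOP58, POLR1E, RRP12, RRP1B, RRS1, TCOF1 and URB2 had no entry. The motif reads the same on both strands, and by its letters it cannot overlap the second motif searched, CCAAT. It was found in 11 of the 36 promoters (30.6%), against 7.4% of all 27305 promoters and 9.8% of the 10665 promoters of tested genes. UTP18 had 2 copies, so there were 12 sites in all. In 9 of the 11 genes a site began within 35 bases of the start. That limit equals the position of the outermost of these sites, in NOP2. The share of other promoters with an E-box so near the start was not counted. The sites are printed with up to 12 bases on either side, on the gene's strand, with the E-box in capitals, to show that the letters around it differ between genes.
BYSL (chr6:41921515-41921544, plus strand): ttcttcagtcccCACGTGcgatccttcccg
EBNA1BP2 (chr1:43172790-43172819, minus strand): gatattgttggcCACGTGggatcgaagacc
FBL (chr19:39846356-39846385, minus strand): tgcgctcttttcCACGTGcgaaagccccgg
NOP14 (chr4:2963374-2963403, minus strand): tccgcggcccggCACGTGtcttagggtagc
NOP2 (chr12:6568242-6568268, minus strand): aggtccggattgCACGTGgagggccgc
PES1 (chr22:30591880-30591909, minus strand): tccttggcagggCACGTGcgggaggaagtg
RRP9 (chr3:51941892-51941921, minus strand): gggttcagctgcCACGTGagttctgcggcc
UTP14A (chrX:129905914-129905940, plus strand): accttgggcCACGTGgaaaccaggggc
UTP18 (chr17:51260445-51260474, plus strand): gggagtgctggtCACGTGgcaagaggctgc
UTP18 (chr17:51260538-51260567, plus strand): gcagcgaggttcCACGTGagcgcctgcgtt
UTP20 (chr12:101280083-101280112, plus strand): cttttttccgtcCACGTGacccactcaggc
WDR43 (chr2:28894658-28894687, plus strand): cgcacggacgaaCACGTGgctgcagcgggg

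In FBL the E-box began 6 bases after the annotated start, and in WDR43 3 bases after it. The sites of EBNA1BP2 and UTP14A lay farthest out, 237 and 241 bases before the start. The 11 genes with an E-box had a median log2 fold change of -0.60 and the 25 without one a median of -0.58. Among the 11, the changes ran from -1.05 in FBL to -0.36 in UTP18. LYAR, POLR1B and DKC1, which fell by more than WDR43, had no CACGTG in this window. The letters CCAAT, read on both strands, were found in 11 of the 36 promoters (30.6%) and in 35.7% of all promoters. A match of letters is a description of the sequence only, and binding was not measured.

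Genes of ribosome production outside the 45 were mostly lower too. The 143 genes examined were listed by role with earlier results of these data known. Of these, 119 (83.2%) fell, 4 rose and 20 did not pass the threshold. Their median log2 fold change was -0.36. The 1.5-fold test called 24 of them (16.8%), all lower. Over all tested genes 37.1% were lower, and 10.0% passed the 1.5-fold test as lower. Because of how the lists were chosen, these counts are a description and not a separate check on the 45 genes. Of 15 other genes of polymerase I, its shared subunits and the promoter factor SL1, 11 fell and 2 rose. CD3EAP, which pairs with the product of POLR1E in polymerase I, went from 22.7 ± 0.911 CPM to 13.0 ± 0.615 CPM, a 1.75-fold fall (SD, n = 2 each), and TAF1B, of SL1, fell 1.63-fold. POLR2L and POLR2K, small subunits that all 3 nuclear polymerases share, rose 1.32-fold and 1.18-fold.

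Among 40 other genes of the small subunit 36 fell and DDX47 alone rose. RCL1 and RIOK1, a processome factor and an atypical kinase, fell 1.78-fold and 1.75-fold. DDX47, an RNA helicase, went from 85.8 ± 2.44 CPM to 123 ± 3.60 CPM, a 1.43-fold rise (SD, n = 2 each). Among 40 other genes of 60S assembly 34 fell and none rose. The 6 that did not pass the threshold included EIF6 (146 CPM in both groups) and SBDS (123 and 127 CPM). NLE1 and MRTO4, factors that act on the maturing large subunit, fell 1.81-fold and 1.71-fold.

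The exosome and RNase MRP trim and cut ribosomal RNA precursors. Of 24 genes of these complexes 17 fell, 1 rose and 6 did not pass the threshold. EXOSC8 and EXOSC2, of the exosome core, fell 2.08-fold and 2.03-fold, while the core gene EXOSC4 was at 24.8 and 26.1 CPM and the exonuclease gene DIS3 at 109.8 and 108 CPM. RPP25, of RNase MRP, rose 1.49-fold. Of 14 genes of snoRNP assembly 13 fell, with WRAP53 down 1.84-fold and the ATPase gene RUVBL1 down 1.81-fold. Of 10 host genes of small nucleolar RNAs, whose introns release the guides, 8 fell. Their median log2 fold change was -0.64 and 5 passed the 1.5-fold test, all lower. SNHG15 went from 21.5 ± 0.859 CPM to 9.02 ± 0.332 CPM, a 2.38-fold fall (SD, n = 2 each), and SNHG3 fell 1.96-fold, while SNHG16 (71.2 and 66.9 CPM) and SNHG12 (6.45 and 6.74 CPM) did not pass the threshold.

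**Figure D4:**
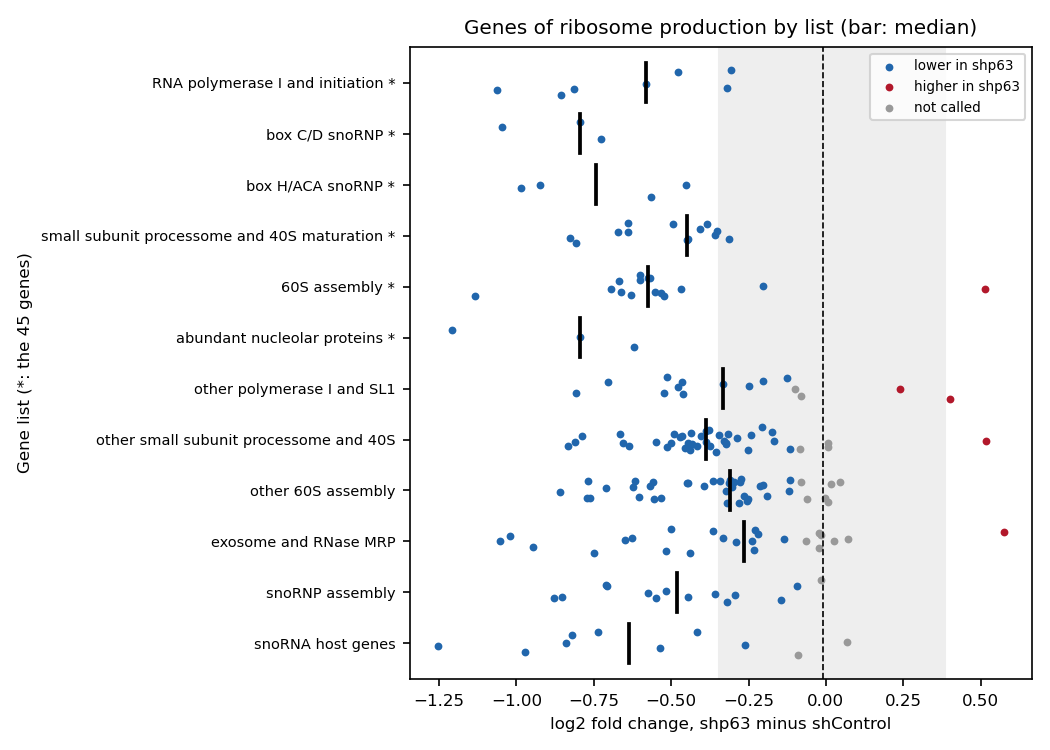
Log2 fold change (shp63 minus shControl) of each tested gene by list, with the 45 genes in the 6 starred rows; points are coloured by call, the black bar is the list's median, the dashed line the median of all tested genes and the grey band their middle 50%. Medians of the 12 lists lie between -0.80 and -0.27, left of the dashed line at -0.01. Those of other polymerase I and SL1 (-0.33), other 60S assembly (-0.31) and exosome and RNase MRP (-0.27) lie inside the grey band. Red points are few: URB1 among the 45 and 4 genes in the other lists.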

How the data were processed

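The authors deposited whole-number read counts per gene, not normalized; reads had been aligned to GRCh37 with TopHat2 2.0.13 and counted with HTSeq 0.6.1, per the series' design text and the submitters' processing notes. The sources used here name neither the gene annotation nor the strand setting, which leaves overlapping genes uncertain. Exons of 12 of the 45 genes overlap a gene that is also in the table. These are GNL3, HEATR1, NHP2, NIP7, NOP14, NOP16, PES1, POLR1C, PPAN, URB1, UTP15 and WDR12. Among them HEATR1, NIP7 and WDR12 passed the 1.5-fold test. Each column was matched to a sample by name.

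Counts were tested with edgeR 4.0.16 (R 4.3.3): TMM factors, filterByExpr defaults (minimum count 10, minimum total 15; 14901 of 25369 genes kept, all 45 among them), a robust quasi-likelihood fit with group as the only term over 4 libraries, Benjamini-Hochberg adjustment over all tested genes, calls at an adjusted p under 0.05, and glmTreat for 1.5-fold. The common biological coefficient of variation was 0.0308. Standard errors came from the log2 fold change and the root of F. On simulated counts for 14901 genes the fit found 59 of 67 genes with a simulated log2 change of 0.585. It found 58 of 64 with 1 and 66 of 66 with 2, and called 7 of 14701 unchanged genes. These counts were drawn with the spread that the same fit had estimated. Far fewer genes changed in them than the 74.0% called in the real data. The simulation therefore cannot test the calls in these data. Replicates differed by more than sampling noise (chi-square per degree of freedom 3.30 and 3.60), so each was kept. Gene positions and transcript lengths are from GENCODE 44 on GRCh37.

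The genes, roles and lists were chosen with earlier results of these data known. Every member is named; values per library are given for POLR1A, POLR1B, UBTF, RRN3, TCOF1, NOP56, NOP58, FBL, DKC1, NCL, NPM1, every member that rose, and the largest and smallest change in each role. In each other list up to 2 called rises and 2 called falls of at least 5 CPM are named; NOP10, EIF6, SBDS, EXOSC4, DIS3, SNHG16, SNHG12, UTP14C, NHP2L1, CIRH1A, NOL11 and genes that overlap a member were added after their values were seen. Alternatives were RLE factors, library totals, 2 other filters, DESeq2 1.42.0, limma-voom 3.58.1, the replicate number as a block and each library left out.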

Additional observations from a re-analysis of the deposited data

How the results depend on the processing

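Under each of the 11 alternatives 44 of the 45 genes were called lower and URB1 higher, and all 495 values of single genes kept their direction and call. The count beyond 1.5-fold was 17 and ranged from 13 (DESeq2 and limma-voom) to 24 (library totals); 13 genes were in it under every setting. Over all genes, 5534 of 14901 were called lower in the main fit, 6591 of 14901 with library totals and 4685 of 19719 with DESeq2. The share of all genes beyond 1.5-fold was not counted under the alternatives. The median log2 fold change of the 45 genes was -0.60. It was -0.69 with library totals, where the median of all tested genes was -0.10, and -0.62 to -0.58 with a library left out, where the lone library of a group is assumed to vary like the other group. PPAN, with the fewest reads, had the highest adjusted p over the alternatives, 0.0391 (edgeR, without the second shControl library). The labels do not say whether same-numbered libraries were prepared together. Deviations of same-numbered libraries correlated at -0.083 across genes, which cannot settle this with so few libraries. With the replicate block 45 of the 45 genes, 16 beyond 1.5-fold, 123 of the 143 other genes and 10858 of all tested genes were called.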

Other observations

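Genes of small nucleolar RNAs or of the related small Cajal body RNAs lie inside 9 of the 45 genes on the same strand (GENCODE 44, GRCh37). There are 21 names in all. POLR1C is counted only for a small Cajal body RNA, SCARNA15. The names inside WDR43 include SNORD53_SNORD92 beside SNORD53 and SNORD92. NOP56 holds SNORA51, SNORD86 and SNORD110, NCL holds SNORA75, SNORD20 and SNORD82, and DKC1 holds SNORA36A and SNORA56. URB1 holds SNORA80. The 9 host genes had a median log2 fold change of -0.62 and the other 36 a median of -0.59. Mature small nucleolar RNAs carry no poly(A) tail and were not measured here.

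The paralogs RRP1 and RRP1B lie near each other on chromosome 21, RRP1 from 45209394 to 45225174 and RRP1B from 45079441 to 45115960 (GRCh37), and fell alike, 1.47-fold and 1.49-fold. UTP14C, an intronless copy of UTP14A, was at 52.2 ± 1.91 CPM in the controls against 54.0 ± 1.98 CPM (SD, n = 2 each; edgeR adjusted p = 0.322), while UTP14A fell from 33.5 ± 1.51 to 21.5 ± 1.14 CPM. Reads that the 2 copies share make both counts uncertain.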
